A study of Mus musculus with 5 samples.

Results

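The 3 libraries described here carried the transcripts of the epididymis, the coiled duct in which sperm mature. They were chosen from 5 libraries by one measured value, the level of Gpx5 (ENSMUSG00000004344), a secreted glutathione peroxidase of the epididymal epithelium. A library was taken where Gpx5 reached 1000 CPM (counts scaled to a common total for each library). Control 1 (29812 CPM), diabetes 1 (31116 CPM) and curcumin-treated 2 (55412 CPM) passed, whereas diabetes 2 (0.0788 CPM, from 2 counts) and curcumin-treated 1 (19.6 CPM, from 545 counts) did not. No library lay near the threshold. Since Gpx5 chose the libraries, its level is given as a description only.

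Per the labels, all of the samples were visceral fat of male C57BL/6 mice. Control 1 stood for mice on standard chow that received vehicle. Diabetes 1 came from the diabetic group, injected with streptozotocin (70 mg/kg, at 2 days of age), a toxin of the insulin-secreting beta cells, and then fed for 8 weeks, starting at 3 weeks of age, on a diet that drew 60% of its calories from fat. That group also received vehicle. Curcumin-treated 2 came from mice with the same injection and diet that were gavaged with curcumin, a polyphenol from turmeric, at 50 mg/kg each day for 28 days, starting at 11 weeks of age. Each state was thus seen in 1 library, and the labels do not tell how many animals it holds. No spread between replicates exists, no test was made, and a difference below is one between 3 tubes of RNA. The ratios carry 95% exact intervals of the counts, which cover counting error only. Where 3 values follow a gene, they are those of control 1, diabetes 1 and curcumin-treated 2, in that order.

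In the male mouse the epididymis lies against the gonadal fat pad. Its epithelium changes from the initial segment through caput and corpus to cauda, and each stretch secretes its own proteins into the lumen: lipocalins, beta-defensins, cystatins, peroxidases and small protease inhibitors. Principal cells carry out most of that secretion and hold a large endoplasmic reticulum, and the segment-specific programme depends on androgens and, in the initial segment, on factors that arrive from the testis.

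The label of fat was checked against adipocyte markers, and the 3 libraries did not carry it. Adipoq, the adipocyte hormone adiponectin, stood at 15.1, 1.34 and 1.41 CPM in control 1, diabetes 1 and curcumin-treated 2, whereas diabetes 2 had 1610.3 CPM. Plin1, the coat protein of lipid droplets, stood at 8.03, 2.32 and 1.44 CPM in the same order, and the fat hormone Lep at 10.3, 3.69 and 7.19 CPM. The 16 adipocyte markers together took 0.107% of the counts of control 1, 0.0657% of diabetes 1 and 0.0469% of curcumin-treated 2. The 24 markers of the caput epididymis took 9.25%, 9.93% and 13.5%, and without Gpx5 the other 23 took 6.27%, 6.82% and 7.92%. Caput markers that did not choose the libraries were abundant in each: Lcn5, a retinoid-binding lipocalin, stood at 6554, 8664 and 6709 CPM, the sperm-binding metalloprotease-like protein Adam7 at 4895, 6637 and 4334 CPM, and the antimicrobial Spag11b at 8046, 8276 and 10935 CPM. Of 7 tested sperm and germ cell markers none was past 2-fold between control 1 and diabetes 1, while against diabetes 1 curcumin-treated 2 had 1 higher and 1 lower. The protamine Prm2 stood at 57.1, 56.4 and 59.6 CPM.

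**Figure D1:**
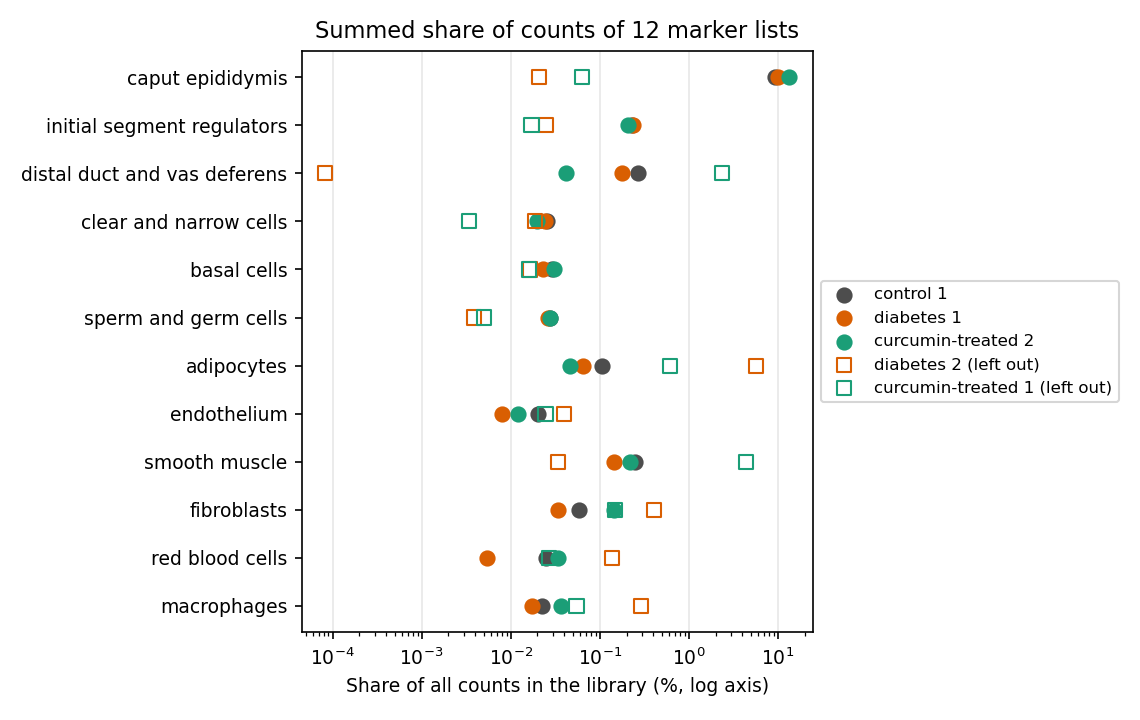
Summed share of all counts, in percent on a log axis, of 12 marker lists in the 3 libraries (filled points) and in the 2 that fell below the Gpx5 threshold (open squares). The filled points sit together at 9.25% to 13.5% for the caput list, while for red blood cells diabetes 1 sits apart, at 0.00549%.

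Total counts were 27026597 in control 1, 25451001 in diabetes 1 and 42422890 in curcumin-treated 2, so that a count of 0 allows up to 0.111, 0.118 and 0.0707 CPM. Diabetes 1 held few thinly covered genes, 1292 with 1 to 5 counts, against 4216 in control 1 and 8960 in curcumin-treated 2. The matching of tissue content was incomplete. Markers of the distal duct took 0.272% of control 1, 0.179% of diabetes 1 and 0.0421% of curcumin-treated 2. Crisp1, a secreted protein that binds sperm, made up most of them, at 2610, 1700 and 334 CPM. The other tested markers of that list differed less, with Cftr at 34.3, 30.4 and 26.6 CPM and Slco4c1 at 71.1, 52.3 and 59.9 CPM. The part of these differences in the results below was not tested, and with 1 library in each state none can be left out.

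Between control 1 and diabetes 1 most of the listed caput markers differed little. Transcripts of blood vessels, smooth muscle, matrix and red blood cells were lower in diabetes 1. Of 78334 genes, 11310 reached 10 CPM in at least 1 of the 3 libraries and were compared, which is what tested means below. Differences are on the log2(CPM + 1) scale, which understates those of low genes, and a gene was counted when it differed at least 2-fold on that scale. In diabetes 1, 163 genes were higher (1.44% of those tested) and 854 were lower (7.55%), with a median over all tested genes of −0.08. The remaining 91.0% of genes differed by less than 2-fold. Some secreted genes of the duct outside the caput list were past the limit: of 27 tested beta-defensins 1 was higher and 3 were lower. When the median of genes of like GC content was removed first, 208 genes were higher and 555 lower. At the limit itself the nearest gene inside differed by 1.00014 and the nearest outside by 0.999994, so the number of genes has no natural edge.

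The question of the treatment is where curcumin-treated 2 stood along each of these differences. A gene was called returned when curcumin-treated 2 covered 50% to 150% of the way from diabetes 1 back to control 1, and overshot when it covered more. It was called stayed when it lay within 50% of the way to either side of diabetes 1, and further when it lay beyond that, away from control 1. Of the 1017 genes, 603 returned (59.3%), 278 stayed (27.3%), 101 overshot and 35 went further. The returned share was alike among genes higher in diabetes 1 (95 of 163, 58.3%) and lower (508 of 854, 59.5%). The stayed share was 10.4% of the higher genes (17 of 163) and 30.6% of the lower ones (261 of 854), but that gap rests on the scaling: with TMM factors on the same tested genes it was 19.1% (37 of 194) and 19.5% (147 of 752), and with DESeq2 factors 18.3% and 21.8%, recounts chosen after seeing the data. Both steps share diabetes 1, so a value of that library that is far out by itself returns by construction, and these counts describe the members without showing an effect of the treatment.

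**Figure D2:**
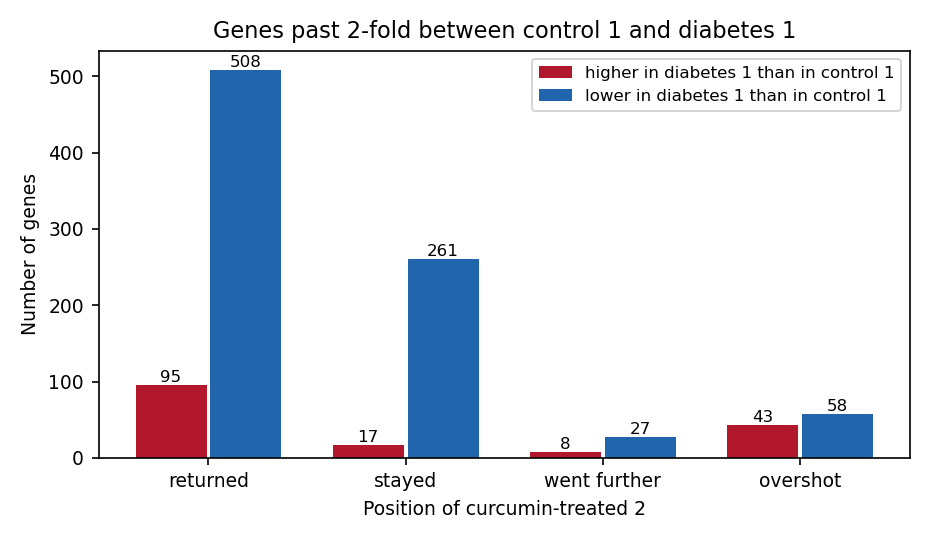
Number of genes at least 2-fold higher (red) or lower (blue) in diabetes 1 than in control 1, by where curcumin-treated 2 stood. The tallest bars are the 508 returned and the 261 stayed genes that were lower in diabetes 1.

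Set directly against diabetes 1, curcumin-treated 2 had 988 genes higher (8.74%) and 932 lower (8.24%). Against control 1 it had 361 higher (3.19%) and 854 lower (7.55%). These splits rest on the scaling. With TMM factors in place of the library total, the counts were 1410 higher and 595 lower against diabetes 1 and 618 higher and 464 lower against control 1, and the median over all tested genes moved from −0.09 to 0.10 and from −0.19 to 0.06. With DESeq2 size factors the counts were 1312 and 663, and 574 and 493. The split of diabetes 1 from control 1 moved little with TMM (194 higher, 752 lower) and with DESeq2 factors (202 and 735). Asked the other way, which library lay farthest from the middle one among the 2702 genes that spanned at least 2-fold over the 3, the answer was curcumin-treated 2 for 1277 genes (47.3%), diabetes 1 for 1005 (37.2%) and control 1 for 420 (15.5%). Diabetes 1 was mostly the low library (732 low, 273 high), as was curcumin-treated 2 (832 low, 445 high), and control 1 was mostly the high one (385 high, 35 low). For curcumin-treated 2 that side turned with the scaling, to 446 low and 786 high with TMM factors and to 494 low and 729 high with DESeq2 factors.

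Among genes that were higher in diabetes 1 and returned, Gc (ENSMUSG00000035540), the vitamin D-binding protein, stood at 51.7 CPM (control 1), 183 CPM (diabetes 1) and 47.8 CPM (curcumin-treated 2). Control 1 and curcumin-treated 2 thus lay side by side, and diabetes 1 was 3.53-fold above control 1 (interval 3.33 to 3.75). St6gal1 (ENSMUSG00000022885), the sialyltransferase that caps N-linked glycans, had 506, 1174 and 404 CPM, a 2.32-fold difference (2.27 to 2.37). Slc16a10, a transporter of aromatic amino acids, had 179.9, 436 and 216 CPM. Xkrx, a member of the XK family of membrane proteins, had 31.8, 96.8 and 41.6 CPM. Diabetes 1 was the single high library for each of these 4 genes. In diabetes 2, which lacks the epididymal signal, Gc stood at 1.62 CPM and St6gal1 at 21.1 CPM.

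The named genes that were lower in diabetes 1 and returned included matrix, growth factor and nuclear proteins. Eln (ENSMUSG00000029675), the elastic fibre protein elastin, had 52.1 CPM (control 1), 8.45 CPM (diabetes 1) and 37.3 CPM (curcumin-treated 2). Diabetes 1 was 6.16-fold below control 1, and curcumin-treated 2 remained somewhat below it. Igfbp2, a binding protein of insulin-like growth factors, had 51.5, 11.6 and 40.2 CPM. Ssbp4 (ENSMUSG00000070003), a single-stranded DNA-binding protein of LIM-domain transcription complexes, had 178, 42.5 and 128 CPM. Col3a1, the type III collagen chain of vessel walls and stroma, returned less fully, at 86.2, 18.8 and 46.4 CPM. All 4 had their lowest level in diabetes 1.

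Of the genes that stayed, 3 on the higher side and 7 on the lower side are given here, and others are named with their lists. Spink2 (ENSMUSG00000053030), a Kazal-type protease inhibitor, had 366 CPM (control 1), 923 CPM (diabetes 1) and 870.0 CPM (curcumin-treated 2). Diabetes 1 and curcumin-treated 2 lay above control 1, by 2.52-fold (2.46 to 2.58) and 2.38-fold. The beta-defensin Defb30 had 924, 1878 and 1486 CPM, and Ckap4, a membrane protein of the rough endoplasmic reticulum, 30.3, 64.3 and 52.5 CPM. On the lower side, Cfd (ENSMUSG00000061780), the complement protease adipsin, had 101, 0.589 and 3.58 CPM from 2742, 15 and 152 counts. Fabp4, the fatty acid carrier of adipocytes and capillaries, had 137, 18.4 and 44.8 CPM, and Car3, the carbonic anhydrase of fat and muscle, 103, 23.7 and 14.2 CPM. Rgs5, a pericyte regulator of G-protein signals, had 55.6, 10.6 and 17.8 CPM, Igfbp3 had 65.0, 13.9 and 29.9 CPM, and the basement membrane chain Col4a1 had 84.4, 23.7 and 30.9 CPM. Ltbp4, a latent TGF-beta binding protein of elastic fibres, had 224, 60.0 and 110.3 CPM. For all 7, diabetes 1 and curcumin-treated 2 lay below control 1. Cfd, Fabp4 and Car3 are of the adipocyte list, and the 2 libraries left out lay above control 1 for them. In diabetes 2 they had 558, 5982 and 8809 CPM, and in curcumin-treated 1 they had 221, 1184 and 824 CPM. The part of fat content in these differences was not tested.

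The named genes that went further down were secreted and membrane proteins of the duct. Defb22 (ENSMUSG00000027468), a beta-defensin that coats sperm, had 447 CPM (control 1), 57.2 CPM (diabetes 1) and 0.519 CPM (curcumin-treated 2), from 12068, 1456 and 22 counts. Spint3, a Kunitz-type inhibitor, had 101, 29.9 and 8.51 CPM. Glb1l3, a beta-galactosidase-like protein, had 101, 33.3 and 1.56 CPM. Car4, a membrane carbonic anhydrase, had 117, 53.5 and 1.44 CPM, and Wfdc16, a WAP-domain protein chosen after its values were seen, had 259, 99.8 and 9.50 CPM. The order of the 3 libraries for all 5 is that of the distal-duct share given above, which is mostly Crisp1. Outside the 3, curcumin-treated 1 had a larger distal-duct share, 2.38%, and lay below control 1 for all 5 genes. It had Defb22 at 0.0719 CPM, Spint3 at 0.755, Glb1l3 at 39.4, Car4 at 11.2 and Wfdc16 at 1.98 CPM. Slco4c1, of the same distal-duct list, had another order. The part of the stretch of duct in the 5 genes was not tested.

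Promoter sequences are shown for Ssbp4, a returned gene with a GC-rich promoter, and for 3 of the duct genes that went further. Each is the 250 bases before the gene's start from RefSeq (GRCm38.p6), upstream of the transcript, 5′ to 3′ on the gene's strand. Capitals mark GGGCGG or its complement CCGCCC, the box read by Sp1-family factors, in Ssbp4, and TGTTCT or its complement AGAACA, the core of androgen and glucocorticoid receptor elements, in the others. The windows are chr8:70608315-70608564 (minus strand) for Ssbp4, chr2:152490139-152490388 (minus) for Defb22, chr2:164573457-164573706 (minus) for Spint3 and chr2:164638803-164639052 (minus) for Wfdc16.
Ssbp4: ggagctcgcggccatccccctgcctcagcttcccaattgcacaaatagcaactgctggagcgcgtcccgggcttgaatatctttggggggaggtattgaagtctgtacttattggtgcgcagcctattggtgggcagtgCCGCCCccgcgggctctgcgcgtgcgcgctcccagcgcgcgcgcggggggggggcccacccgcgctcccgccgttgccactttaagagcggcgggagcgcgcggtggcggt
Defb22: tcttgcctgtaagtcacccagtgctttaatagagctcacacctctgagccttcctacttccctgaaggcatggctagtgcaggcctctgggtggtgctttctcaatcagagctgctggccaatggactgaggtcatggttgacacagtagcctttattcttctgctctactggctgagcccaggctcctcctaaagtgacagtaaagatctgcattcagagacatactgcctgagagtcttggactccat
Spint3: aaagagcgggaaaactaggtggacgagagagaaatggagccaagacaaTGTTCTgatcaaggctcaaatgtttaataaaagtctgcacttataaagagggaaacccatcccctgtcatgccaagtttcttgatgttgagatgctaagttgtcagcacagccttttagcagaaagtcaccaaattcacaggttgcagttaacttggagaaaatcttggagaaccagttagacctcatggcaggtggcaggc
Wfdc16: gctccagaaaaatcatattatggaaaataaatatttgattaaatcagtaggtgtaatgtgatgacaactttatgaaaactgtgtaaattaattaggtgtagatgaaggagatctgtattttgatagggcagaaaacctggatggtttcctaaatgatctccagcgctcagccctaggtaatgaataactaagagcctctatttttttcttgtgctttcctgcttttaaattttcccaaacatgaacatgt
The Ssbp4 window is 68.4% GC and holds 1 GC box, and those of Defb22, Spint3 and Wfdc16 are 50.8%, 44.0% and 33.6% GC. The receptor letters occur 1 time in the Spint3 window and not in those of Defb22 and Wfdc16. GGGCGG on either strand occurred in 56.2% of the 345 promoters matched for genes that were lower and returned, in 61.1% of the 8189 matched for all tested genes and in 32.9% of all 27025 promoters. TGTTCT occurred in 11.0%, 10.4% and 16.2% of the same sets. A match of letters is a description of the sequence, not a binding site.

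Genes that overshot ran below control 1 or above it in curcumin-treated 2. Lipc, hepatic lipase, had 16.4 CPM (control 1), 58.8 CPM (diabetes 1) and 7.28 CPM (curcumin-treated 2), and the glycoprotein hormone Stc1 had 22.5, 62.4 and 7.76 CPM. In the opposite direction Loxl1, which cross-links elastin, had 13.3, 1.26 and 63.8 CPM, and Thbs1, the matrix protein thrombospondin, 12.2, 2.99 and 203 CPM. Col1a1, the type I collagen chain, had 87.5, 33.6 and 947 CPM. Lcn8 (ENSMUSG00000036449), a lipocalin of the initial segment and caput, was the 1 of 23 tested caput markers past 2-fold in diabetes 1, with 10028, 4297 and 19664 CPM. The level in diabetes 1 was 2.33-fold below control 1, while that in curcumin-treated 2 was higher than it by 0.97 on the log2(CPM + 1) scale.

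**Figure D3:**
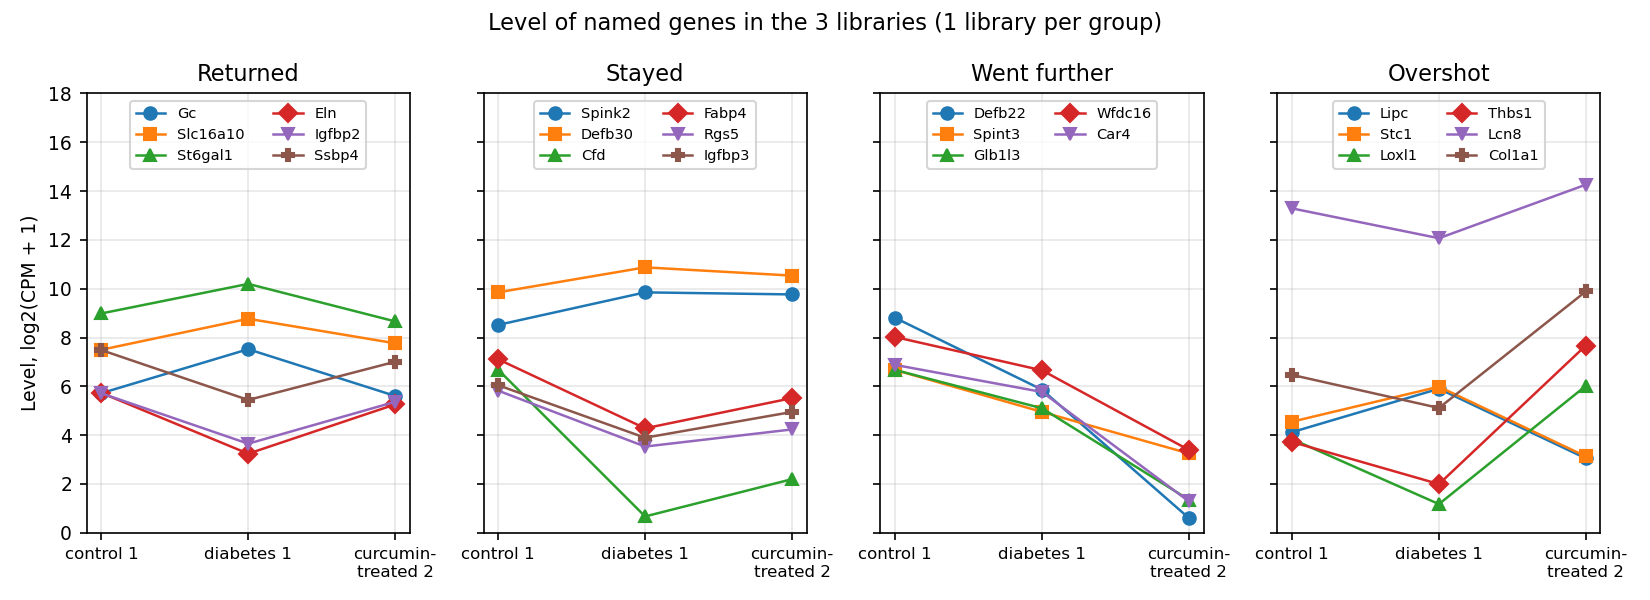
Level on the log2(CPM + 1) scale of 23 genes in control 1, diabetes 1 and curcumin-treated 2, 1 library each, grouped by where curcumin-treated 2 stood. Lines only join the values of a gene; the genes that went further, such as Defb22 at 447, 57.2 and 0.519 CPM, step down through all 3 libraries.

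Within the caput list the median difference of diabetes 1 from control 1 was 0.06 on the log2(CPM + 1) scale. Over all tested genes it was −0.08. Of 23 tested caput genes, 22 were within 2-fold. The 22 include Gpx5, which chose the libraries, and the median is the difference of Gpx5 itself. Both values are thus given as a description only. Clu, the chaperone clusterin, which binds sperm in the lumen, had 9623, 18307 and 10463 CPM, so that diabetes 1 was 1.90-fold above control 1. Rnase9, a ribonuclease-like secreted protein, had 2102, 3667 and 1623 CPM. Cst8, a cystatin of the initial segment, ran the other way, with 1654, 857 and 2140 CPM, and the membrane protein Teddm1a had 1648, 1328 and 4133 CPM. Of 8 tested regulators of the initial segment, Fgfr1, a receptor for the luminal growth factors that sustain it, was past 2-fold, with 62.9, 23.7 and 59.3 CPM. Fgfr1 is not specific to the duct here, since both libraries left out exceeded control 1. Diabetes 2 had 192 CPM of it, and curcumin-treated 1 had 90.0 CPM. The other tested members of that list lay below control 1 in both. The part of other cell types in the Fgfr1 difference was not tested. Etv4, a target factor of Fgfr1, had 106, 62.1 and 135 CPM, a difference of −0.76. Among markers of other epithelial cells, none of 5 for clear and narrow cells and none of 6 for basal cells was past 2-fold, although 1 of the 5 and 0 of the 6 were above control 1. Their medians were −0.34 and −0.38. The ionocyte factor Foxi1, at 48.8, 69.4 and 46.8 CPM, was the 1 of the 5 above control 1. Car2, of the same list, had 64.5, 44.1 and 39.1 CPM. The basal keratin Krt5 had 60.8, 46.9 and 53.7 CPM.

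Markers of endothelium, smooth muscle, red blood cells and adipocytes had medians far below that of all tested genes, and those of macrophages did not, with none of 8 past 2-fold and a median of −0.27. Of 7 tested endothelial markers 6 were at least 2-fold lower in diabetes 1, against 7.55% of all tested genes, and the list's median difference was −1.85. Cldn5, a tight junction protein of endothelium, had 25.9, 4.24 and 11.2 CPM, the vascular cadherin Cdh5 had 18.9, 3.65 and 7.57 CPM, the VEGF receptor Kdr 22.4, 4.83 and 8.89 CPM and the adhesion molecule Pecam1 35.0, 8.96 and 14.6 CPM. Curcumin-treated 2 lay between the other libraries for each of these 4 genes, and the list's median stood −1.14 from control 1. Smooth muscle followed with 6 of 7 tested markers lower and a median of −1.43. Its contractile proteins Acta2 (561, 196 and 394 CPM) and Myh11 (318, 117 and 185 CPM) were intermediate in curcumin-treated 2, whereas Des, the muscle intermediate filament, overshot (103, 35.95 and 257 CPM). Actg2, the enteric actin, was within 2-fold, at 1363, 1035 and 1225 CPM. Fewer cells of a type and less RNA per cell cannot be told apart in such bulk libraries.

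All 4 tested globin genes were lower in diabetes 1, with a median of −2.21. Hba-a1 had 72.4, 17.1 and 146 CPM and Hba-a2 84.6, 16.7 and 139 CPM, while Hbb-bs had 54.9, 9.63 and 20.2 CPM and Hbb-bt 33.2, 6.68 and 29.9 CPM. Each pair is a set of near-identical copies whose reads the counting may have split unevenly, so the order within a pair is uncertain. Adipocyte genes were lower in 11 of 14, with a median of −1.72, and 9 of the 11 stayed low in curcumin-treated 2. Retn, the adipocyte hormone resistin, had 721 counts in control 1, 0 in diabetes 1 and 116 in curcumin-treated 2, which makes it at least 226-fold higher in control 1 than a floor of 3 counts in diabetes 1. Acsl1, an acyl-CoA synthetase, stood at 273, 389 and 174 CPM and did not follow that list. Among fibroblast markers 3 of 6 were lower in diabetes 1, all of them collagens, and the other 3 were within 2-fold. With the median of genes of like GC content removed, the medians of these lists were −1.82 for endothelium, −1.14 for smooth muscle, −2.01 for globins, −1.44 for adipocytes and −0.64 for fibroblasts.

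Of 23 pathway lists, that of endoplasmic reticulum chaperones had the highest median in diabetes 1, although none of its 17 tested members passed 2-fold. The unfolded protein response raises these genes when secretory cargo outpaces folding. In diabetes 1, 15 of 17 were above control 1, with a median of 0.39, where 43.1% of all tested genes were above it. Hspa5, the central chaperone of the compartment, had 1278 CPM (control 1), 2032 CPM (diabetes 1) and 1015 CPM (curcumin-treated 2). Its co-chaperone Dnajb9 had 86.8, 173 and 63.1 CPM, the degradation factor Herpud1 had 147, 273 and 145 CPM, and the disulfide isomerase Pdia4 429, 771 and 439.7 CPM. Diabetes 1 was the high library for these 4 examples, and curcumin-treated 2 lay near or below control 1. Others of the list, chosen after their values were seen, were not back: Hsp90b1, a chaperone of the same compartment, had 843, 1285 and 1256 CPM, and the secreted factor Manf had 401, 492 and 649 CPM. Over the list 11 of 17 were above control 1 in curcumin-treated 2, with a median of 0.05. Atf4, the transcription factor of the parallel stress branch, went the other way, with 246, 139 and 287 CPM. The list took 0.806% of the counts of control 1, 1.12% of diabetes 1 and 0.879% of curcumin-treated 2.

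Heat shock genes leaned the same way, 8 of 10 above control 1 with a median of 0.38. Hspa8, the constitutive Hsc70 chaperone, had 209.9, 425 and 220.1 CPM, and its nucleotide exchange factor Hsph1 had 18.8, 39.4 and 22.5 CPM. These were the only 2 past 2-fold of the 10, and both returned.

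For metabolic and insulin pathways the shares within 2-fold were near the 91.0% of all tested genes. None of 14 insulin signalling genes, 11 fatty acid oxidation genes, 12 cholesterol synthesis genes, 15 glycolysis genes, 17 NRF2 antioxidant genes or 20 cytosolic ribosomal genes passed the limit between control 1 and diabetes 1. Insr, the insulin receptor, stood at 78.6, 64.6 and 49.4 CPM. Fatty acid synthesis had 1 of 10 past the limit, Thrsp, a lipogenic nuclear protein (20.4, 3.18 and 5.00 CPM). In curcumin-treated 2 the same list was lower than control 1 for 5 of 10 genes, against 7.55% of all tested genes, with a median of −0.91 against −0.19 over all tested genes. With TMM factors it was 3 of 10, against 4.10%. Acly, which makes cytosolic acetyl-CoA, had 691, 1005 and 284 CPM, the desaturase Scd1 had 400.0, 217 and 161 CPM and the synthase Fasn 363, 336 and 178 CPM. Pdpk1, the kinase that activates Akt, stood at 33.3, 35.8 and 13.4 CPM, and among NRF2 targets Nqo1 (39.4, 28.6 and 12.8 CPM) and Srxn1 (75.4, 56.8 and 31.2 CPM) were at least 2-fold lower than control 1 in curcumin-treated 2.

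Single members of other lists were low in diabetes 1 and back in curcumin-treated 2. Psmb9, a subunit of the immunoproteasome, had 11.9, 1.45 and 16.6 CPM. Gpx4, the peroxidase that protects sperm and membrane lipids, had 50.3, 15.8 and 60.8 CPM, and may share reads with processed copies. Dusp1, a glucocorticoid-induced phosphatase, had 17.1, 4.48 and 12.8 CPM, the early-response factor Jund had 172, 69.8 and 178 CPM, and the clock-driven factor Dbp 32.2, 6.37 and 16.6 CPM. Tmprss2, an androgen-responsive protease, was 1 of 8 such genes past the limit, and stayed low (11.4, 2.28 and 3.46 CPM). Of 5 tested inflammation genes 1 was past the limit, the adhesion molecule Icam1 (12.4, 4.79 and 4.01 CPM). Of 11 tested antigen presentation genes 3 were at least 2-fold higher in curcumin-treated 2 than in control 1, against 3.19% of all tested genes, all of them of class II. Of these, H2-Aa had 38.1, 39.8 and 136 CPM and H2-Eb1 36.7, 41.1 and 159 CPM, while their chaperone Cd74 was within 2-fold, at 105, 116 and 204 CPM. The macrophage complement gene C1qa had 38.6, 23.7 and 110.0 CPM beside them, and the part of immune cells in the tissue was not tested.

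The GC content of a gene's transcript went with its difference. Over the 11088 tested genes with a known transcript, Spearman's rho between GC content and the difference of diabetes 1 from control 1 was −0.349, and 0.301 for curcumin-treated 2 minus diabetes 1, which share diabetes 1. For curcumin-treated 2 minus control 1 it was 0.0330. Genes are not independent replicates, and these values describe the libraries. Of 5 groups of equal size by GC content, the richest (55.5% to 72.8%) had 376 of 2218 genes (17.0%) at least 2-fold lower in diabetes 1, and the poorest had 56 of 2218 (2.52%). The 508 genes that were lower and returned had a median GC content of 55.5%, against 50.0% over all tested genes. Diabetes 1 was thus set apart from both other libraries along GC content, and the part of this in the returned genes was not tested. Curcumin-treated 2 was set apart along transcript length: rho between length and its difference was −0.291 from control 1 and −0.300 from diabetes 1, against 0.0978 for diabetes 1 minus control 1. The genes for which it was the high library had a median length of 1108 bases, and the part of length in its differences was not tested.

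**Figure D4:**
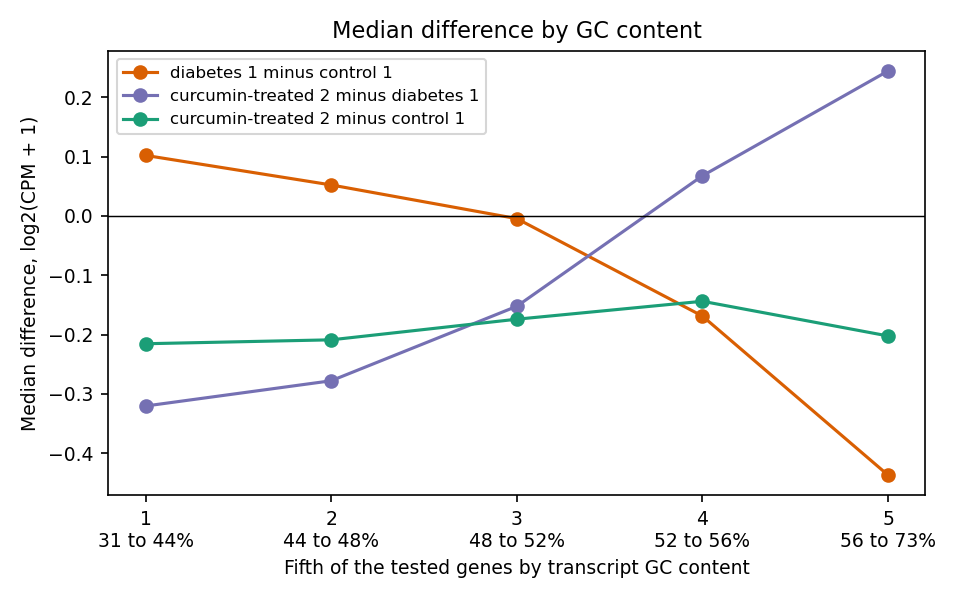
Median difference on the log2(CPM + 1) scale between pairs of the 3 libraries, for the tested genes in 5 groups of equal size by transcript GC content. Diabetes 1 minus control 1 (orange) runs from 0.10 in the poorest group to −0.44 in the richest, curcumin-treated 2 minus diabetes 1 (violet) runs from −0.32 to 0.24, and curcumin-treated 2 minus control 1 (green) lies at −0.14 to −0.22.

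The libraries outside the Gpx5 threshold gave a look at the same genes in RNA that the choice of genes did not use. Between diabetes 2 and curcumin-treated 1, 20.3% of the tested genes were at least 2-fold higher in curcumin-treated 1 and 11.5% were lower. Of the 508 genes that were low in diabetes 1 and returned, 37.0% were higher in curcumin-treated 1, and of the 2218 genes richest in GC 36.5% were. Of the 95 genes that were high in diabetes 1 and returned, 18.9% were lower in curcumin-treated 1 and 16.8% higher. The 261 genes that were low in diabetes 1 and stayed had 94 higher, a like share, so this look did not tell returned from stayed low genes. These 2 libraries differ from each other in tissue, with adipocyte markers at 5.71% and 0.619% of counts.

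Curcumin-treated 2 was also apart in genes that differed less between the other libraries, and among neighbouring secretory genes this fell unevenly. The genes named in this and the next paragraph, other than Defb22, Eln and Ltbp4, were chosen after their values were seen. Spint4, a Kunitz-type inhibitor, had 652 CPM (control 1), 980.2 CPM (diabetes 1) and 3.21 CPM (curcumin-treated 2), from 17632, 24947 and 136 counts, which makes it 204-fold lower than in control 1. Spint5 had 212, 234 and 0.636 CPM, Wfdc13 had 845, 926 and 62.0 CPM, the Ly6-domain protein Pate1 had 116, 74.2 and 0.189 CPM and Defb23 had 612, 630.1 and 71.3 CPM. Some genes of the same clusters did not follow: Wfdc10 had 1639.7, 1367 and 2386 CPM and Defb25 had 1732, 1651 and 2766 CPM. Others did. Wfdc13, Spint4 and Spint5 are next to each other among the tested genes, as are Defb22, Defb26 and Defb28, and all of these were low. Defb26 had 43.0, 15.4 and 0.636 CPM and Defb28 had 407, 251 and 55.9 CPM. Pate2, of the family of Pate1, was also low, at 113, 111 and 4.31 CPM. In the Wfdc and Spint cluster of chromosome 2, 6 of 14 tested genes were at least 2-fold lower than control 1 in curcumin-treated 2, against 7.55% of all tested genes, and 8 were within 2-fold. In the beta-defensin cluster of the same chromosome 4 of 9 were lower and 5 were within. Over all 27 tested beta-defensins 8 were lower and 1 higher, with a median of 0.20. With TMM factors the counts of lower genes were 5 of 14, 4 of 9 and 8 of 27, against 4.10% of all tested genes. Gpx3, the secreted plasma peroxidase, had 2681, 1776 and 501.0 CPM, and Akr1b7, an aldo-keto reductase of the vas deferens, 8.70, 6.76 and 0.141 CPM. The low side also held genes that are not secretory genes of the duct. Mir6236 had 1758, 2150 and 38.3 CPM, Lars2 had 1185, 1754 and 54.8 CPM and the mitochondrial ribosomal RNA mt-Rnr1 had 203, 288 and 32.6 CPM.

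**Figure D5:**
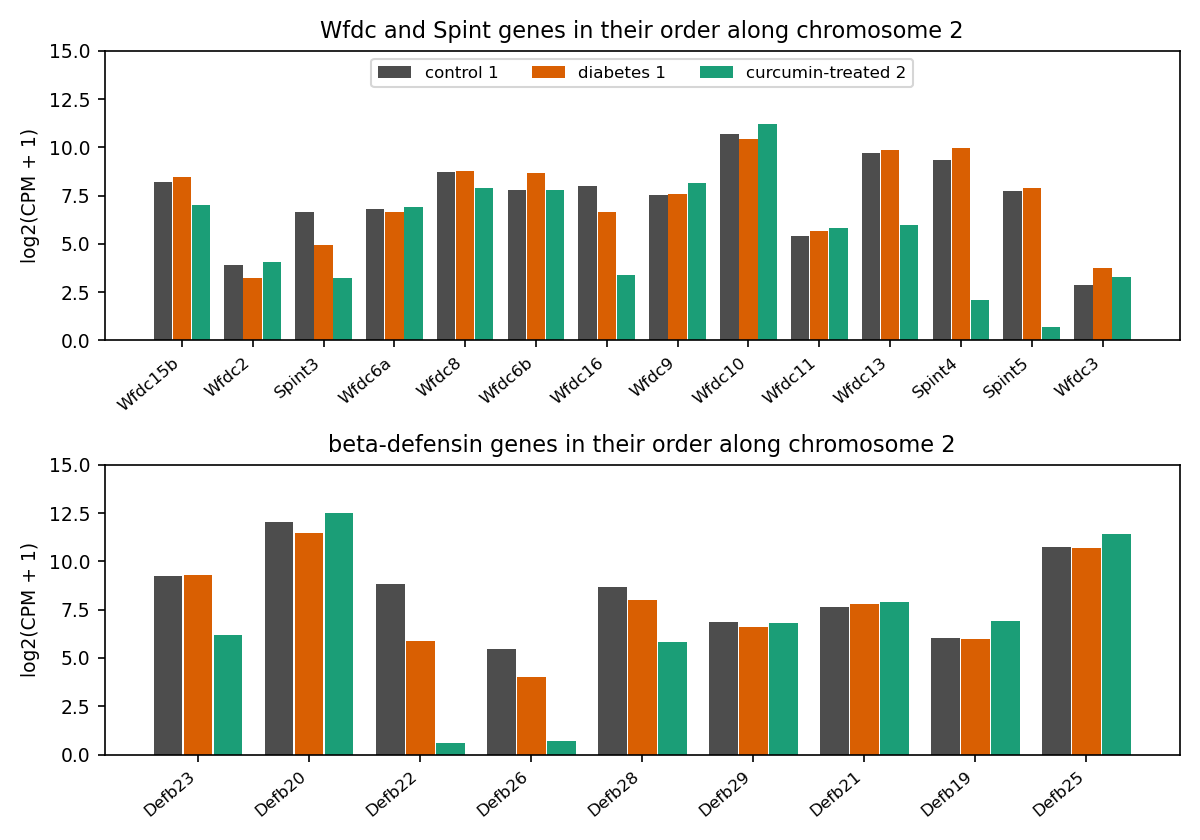
Level on the log2(CPM + 1) scale of the 14 tested Wfdc and Spint genes and the 9 tested beta-defensin genes of 2 clusters, in their order along chromosome 2, in 3 libraries. Green bars (curcumin-treated 2) are nearly absent for Spint4, Spint5 and Defb22 and of usual height for Wfdc10 and Defb25, which lie in the same clusters.

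Genes far higher in curcumin-treated 2 included some of matrix and muscle, while other matrix genes named above, such as Eln and Ltbp4, lay below control 1. Fn1, the matrix protein fibronectin, had 19.1 CPM (control 1), 13.4 CPM (diabetes 1) and 1128 CPM (curcumin-treated 2), 59.0-fold above control 1. Mmp2, the gelatinase of stromal cells, had 3.40, 1.38 and 172 CPM, and the skeletal actin Acta1 had 3.89, 2.24 and 88.7 CPM. Actc1, the cardiac actin, had 0, 0 and 8356 counts, which puts it at least 1774-fold above a floor of 3 counts in control 1 and at least 1671-fold above that in diabetes 1. Processed pseudogenes and other pseudogenes made up 174 of 422 genes with a known class (41.2%) for which curcumin-treated 2 was the high library, against 6.16% of all tested genes. Reads of a parent gene can be counted to its copy, so these 174 are uncertain as separate genes.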

How the data were processed

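Poly-A RNA of 5 samples was sequenced in paired ends with a stranded kit, according to the labels' protocols. The deposited table holds raw read counts of 78334 Ensembl genes, whole numbers without scaling. FastQC, featureCounts and GRCm39 are listed in the submitters' processing notes. Aligner, annotation release and strand setting were not given in the sources used here, so reads of overlapping antisense genes and of near-identical copies are uncertain.

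Counts were divided by the library total to give CPM (Python 3.11.15, pandas 2.3.3, numpy 2.4.6). Levels were compared as log2(CPM + 1) for the 11310 genes at 10 CPM or more in at least 1 of 3 libraries, without any test. Intervals of ratios are exact and those of counts Poisson, at 95% (scipy 1.17.1). Symbols matched 51486 genes by ID, 11088 of them tested. GC content came from GENCODE M21 transcripts of GRCm38; no GRCm39 coordinates were used. TMM factors (edgeR 4.0.16) and size factors (DESeq2 1.42.0, R 4.3.3) were alternatives.

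Genes named by class have a symbol and at least 50 CPM in 1 library. They are the 8 with the largest difference of diabetes 1 from control 1 per direction among returned and among stayed genes. Up to 3 per direction were taken among those that went further and among those that overshot. Up to 4 members of each list were added from the tested genes, which need 10 CPM only. Several of these, such as Psmb9, Icam1 and Tmprss2, thus rest on low levels. Named list members outside that rule, such as Gpx5, Lcn5, Adam7, Spag11b, Prm2, Plin1, Lep, Hspa5, Acly and H2-Aa, were chosen after their values were seen. The members and the 40 lists (484 genes, 480 found) were chosen with earlier results of these data known, so their counts are no independent support. The classes were tested on simulated data with counting noise only, where 200 of 200 genes changed 4-fold were recovered among 7523. Those genes had higher mean levels than the 10 CPM minimum asks, and their changes lay well inside the class limits. Recovery was thus close to certain, and it checks the code and not genes near the 2-fold limit. Other filters, pseudocounts, fold limits and libraries were tried as alternatives.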

Additional observations from a re-analysis of the deposited data

Results flagged for a closer look

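The 2 libraries that fell below the Gpx5 threshold carried signal of other tissue, above its level in control 1. Adipocyte markers took 5.71% of the counts of diabetes 2, against 0.107% of control 1. Smooth muscle markers took 4.35% of the counts of curcumin-treated 1, against 0.248% of control 1. Distal duct and vas deferens markers took 2.38% of the counts of curcumin-treated 1, against 0.272% of control 1.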

How the results depend on the processing

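The differences of diabetes 1 from control 1 kept their direction under the scalings, pseudocounts, filters, fold limits, thinning of counts and GC correction. This held for every named gene and list with a difference of at least 2-fold. The direction of differences of curcumin-treated 2 was not checked in this way for single genes or list medians. Counts of genes within 1.5 times of the reported ones are left out here. The causes of the changes below were not tested, except that stricter limits leave fewer genes by construction.

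TMM factors over the 3 libraries gave 179 stayed genes. The total without the 50 most abundant genes of each library gave 248 genes higher in diabetes 1. A pseudocount of 5 CPM gave 77 genes higher in diabetes 1, 488 genes lower in diabetes 1, 315 returned genes, 612 genes with diabetes 1 farthest out and 266 genes with control 1 farthest out. A minimum of 5 CPM in 1 library gave 292 genes higher in diabetes 1 and 424 stayed genes. A mean of at least 10 CPM gave 101 genes higher in diabetes 1. A minimum of 50 CPM in 1 library gave 45 genes higher in diabetes 1, 201 genes lower in diabetes 1, 133 returned genes, 64 stayed genes, 293 genes with diabetes 1 farthest out, 435 genes with curcumin-treated 2 farthest out and 108 genes with control 1 farthest out. No minimum beyond 1 count gave 1242 genes higher in diabetes 1, 2365 genes lower in diabetes 1, 2337 returned genes, 1036 stayed genes, 3352 genes with diabetes 1 farthest out, 2921 genes with curcumin-treated 2 farthest out and 1361 genes with control 1 farthest out. A limit of 1.5-fold gave 837 genes higher in diabetes 1, 2181 genes lower in diabetes 1, 1528 returned genes, 841 stayed genes, 2331 genes with diabetes 1 farthest out, 2686 genes with curcumin-treated 2 farthest out and 1169 genes with control 1 farthest out. A limit of 4-fold gave 6 genes higher in diabetes 1, 107 genes lower in diabetes 1, 63 returned genes, 42 stayed genes, 133 genes with diabetes 1 farthest out, 347 genes with curcumin-treated 2 farthest out and 55 genes with control 1 farthest out. Diabetes 2 in place of diabetes 1 gave 2724 genes higher in the diabetic library, 2859 genes lower in the diabetic library, 4795 returned genes, 433 stayed genes and 5736 genes with the diabetic library farthest out. Curcumin-treated 1 in place of curcumin-treated 2 gave 150 stayed genes and 3802 genes with the curcumin-treated library farthest out. The mean of both libraries of each diabetic group gave 1631 genes higher in the diabetic library, 1691 returned genes, 912 stayed genes, 2051 genes with the diabetic library farthest out and 1148 genes with control 1 farthest out. Removing the median of genes of like GC content, chosen after seeing the data, gave 555 genes lower in diabetes 1 and 272 genes with control 1 farthest out. In these the 10 CPM minimum was applied again to the rescaled values; on the same 11310 genes the total without the 50 most abundant genes gave 187 genes higher in diabetes 1.

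With diabetes 2, which lacks the epididymal signal, in place of diabetes 1, the median list difference from control 1 turned to 5.56 for adipocytes, 1.17 for endothelium, 2.40 for red blood cells. For single genes that swap turned the log2 difference to −4.33 for Gc, −4.26 for Xkrx, −1.75 for Slc16a10, −4.52 for St6gal1, 0.62 for Eln, 2.38 for Hba-a2, 4.12 for Col3a1, −7.78 for Spink2, −0.10 for Ckap4, −9.85 for Defb30, 2.45 for Cfd, 5.44 for Fabp4, 2.42 for Hbb-bs, 0.93 for Rgs5, 6.41 for Car3, 3.93 for Col4a1, −3.49 for Lipc, −2.89 for Stc1, 2.47 for Loxl1, 4.60 for Thbs1, 1.59 for Fgfr1, 4.22 for Retn, 6.65 for Adipoq, 1.48 for Cldn5, 1.52 for Cdh5, 0.65 for Kdr, 1.56 for Pecam1, 1.82 for Col1a1, 2.89 for Hbb-bt, 2.38 for Hba-a1, 3.80 for Thrsp, 0.47 for Icam1, 1.00 for Psmb9, 3.03 for Dusp1, 1.74 for Gpx4, 8.92 for Lep, 7.38 for Plin1. With the mean of both libraries of each diabetic group, the median list difference from control 1 turned to 4.57 for adipocytes, 0.35 for endothelium, 1.46 for red blood cells. For single genes that mean turned the log2 difference to 1.44 for Hba-a2, 3.13 for Col3a1, 1.45 for Cfd, 4.44 for Fabp4, 1.47 for Hbb-bs, 0.078 for Rgs5, 5.41 for Car3, 2.96 for Col4a1, 1.51 for Loxl1, 3.61 for Thbs1, 0.77 for Fgfr1, 3.22 for Retn, 5.65 for Adipoq, 0.57 for Cldn5, 0.63 for Cdh5, 0.69 for Pecam1, 0.97 for Col1a1, 1.93 for Hbb-bt, 1.45 for Hba-a1, 2.82 for Thrsp, 0.13 for Psmb9, 2.08 for Dusp1, 0.88 for Gpx4, 7.92 for Lep, 6.38 for Plin1. 

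No paired analysis was possible because each group has 1 library here and no test was made; for the same reason no library could be left out. The minimum of 10 CPM lies far above the limit that a count of 0 allows (0.0707 to 0.118 CPM). Depth limits the values that rest on few counts, such as those of Retn, Actc1, Cfd and Defb22, and the lack of replicates limits all of them.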
